A study of Homo sapiens with 8 samples.

Results

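The genes described here are 9 genes of major histocompatibility complex (MHC) class I antigen presentation: HLA-B, HLA-C, HLA-E, B2M, TAP1, TAP2, TAPBP, PSMB8 and PSMB9. They were taken by gene symbol from a table of normalized counts, in which each of the 9 symbols had 1 row among 47591 genes. The table covers 8 RNA-seq libraries made from polyadenylated RNA of SH-SY5Y, an established human neuroblastoma line. The G2 line (3 libraries) carries a CRISPR/Cas9 edit made with a guide that targets PRPF40B, which encodes a splicing factor. The SCR line (3 libraries) was made in the same way with a scrambled control guide, and the WT line (2 libraries) was not edited. Edited cells were selected with puromycin and grown from individual colonies by limiting dilution, so an effect of the guide and a property of the colony cannot be told apart. The methods list SCR and G2, but not WT, among the lines kept in puromycin, so drug exposure and editing cannot be told apart in comparisons with WT. The libraries are labelled biological replicates of a line, so p-values measure the spread between cultures of these 3 lines and not between independent edits.

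Class I molecules display short peptides from inside the cell to cytotoxic T cells. The proteasome cuts proteins into peptides, and PSMB8 and PSMB9 encode catalytic subunits that replace the constitutive ones in the immunoproteasome. TAP1 and TAP2 form the transporter that carries peptides into the endoplasmic reticulum, and TAPBP (tapasin) holds empty class I molecules to it during peptide loading. HLA-B and HLA-C are classical heavy chains, HLA-E is a non-classical heavy chain read mainly by natural killer cells, and B2M (beta-2-microglobulin) is the light chain that all of them need to reach the cell surface. Interferons induce these genes in most cell types, and neuroblastoma is known for low class I expression.

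Library depth, given as whole counts recovered from the normalized values, ran from 59804395 to 81080747 per library. PRPF40B, the targeted gene, had mean normalized counts of 866 in the 3 G2 libraries, 1676 in the 3 SCR libraries and 1820 in the 2 WT libraries (SD 44.5, 8.79 and 215), so the target was lower in all G2 libraries but not lost (exact two-sided permutation test of 3 libraries against 5, p = 0.0179, the smallest p this design allows). Ribosomal RNA genes took up 4.96% and 4.75% of the WT libraries and 0.384% to 0.587% of the other 6.

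The start regions of the genes were compared for the interferon-stimulated response element, searched as GAAANNGAAA and, on the other strand, TTTCNNTTTC. RefSeq windows from 250 bases before to 50 bases after a start (GRCh38.p14) were matched by symbol for 8 of the 9 genes, all but HLA-E. These 8 genes had 10 windows, with a second window for TAP1 and for PSMB8. Of the 8 genes, 5 held a match (B2M, TAP1, TAP2, TAPBP and PSMB8), while the other TAP1 and PSMB8 windows held none. A match was present in 3.57% of all 35116 windows, a share counted by window and not by gene. Of 15 other class I genes with 25 windows, 6 held a match (ERAP1, ERAP2, HLA-F, PSME1, PSME2 and PSMB10). The windows of HLA-B, HLA-C and PSMB9 held none, which says only that these letters are not there. The 5 windows with a match are shown because they belong to the most abundant of these genes (B2M), to TAP1, PSMB8 and TAPBP, which rose, and to TAP2, which was not called, and HLA-C is shown as a gene that rose without one. They lie at chr15:44711267-44711566 on the plus strand for B2M and, on the minus strand, at chr6:32853655-32853954 for TAP1, chr6:32843998-32844297 for the downstream one of the PSMB8 starts, chr6:33314029-33314328 for TAPBP, chr6:32838690-32838989 for TAP2 and chr6:31272043-31272342 for HLA-C. Each sequence runs 5′ to 3′ on the gene's strand, with the matched letters in capitals.
B2M: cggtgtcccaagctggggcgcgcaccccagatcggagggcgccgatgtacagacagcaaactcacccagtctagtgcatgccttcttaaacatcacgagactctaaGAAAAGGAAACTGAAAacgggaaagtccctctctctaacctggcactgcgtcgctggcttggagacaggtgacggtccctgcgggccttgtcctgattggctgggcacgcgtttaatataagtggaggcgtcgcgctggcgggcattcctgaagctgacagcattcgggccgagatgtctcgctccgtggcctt
TAP1: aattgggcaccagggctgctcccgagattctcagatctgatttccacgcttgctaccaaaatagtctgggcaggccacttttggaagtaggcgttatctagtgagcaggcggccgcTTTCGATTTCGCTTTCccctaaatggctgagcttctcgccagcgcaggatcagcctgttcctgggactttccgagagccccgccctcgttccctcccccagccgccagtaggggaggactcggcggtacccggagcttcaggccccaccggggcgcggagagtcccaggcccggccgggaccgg
PSMB8: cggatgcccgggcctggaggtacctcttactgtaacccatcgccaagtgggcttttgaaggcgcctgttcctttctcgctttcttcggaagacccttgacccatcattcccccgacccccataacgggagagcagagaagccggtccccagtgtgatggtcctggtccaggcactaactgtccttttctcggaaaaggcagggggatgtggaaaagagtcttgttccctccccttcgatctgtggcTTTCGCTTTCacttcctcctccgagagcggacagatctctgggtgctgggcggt
TAPBP: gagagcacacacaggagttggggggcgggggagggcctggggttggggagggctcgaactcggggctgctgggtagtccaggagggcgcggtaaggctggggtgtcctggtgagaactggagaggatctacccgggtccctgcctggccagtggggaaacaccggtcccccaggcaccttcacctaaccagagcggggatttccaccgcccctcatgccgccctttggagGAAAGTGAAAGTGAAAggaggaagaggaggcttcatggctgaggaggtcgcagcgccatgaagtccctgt
TAP2: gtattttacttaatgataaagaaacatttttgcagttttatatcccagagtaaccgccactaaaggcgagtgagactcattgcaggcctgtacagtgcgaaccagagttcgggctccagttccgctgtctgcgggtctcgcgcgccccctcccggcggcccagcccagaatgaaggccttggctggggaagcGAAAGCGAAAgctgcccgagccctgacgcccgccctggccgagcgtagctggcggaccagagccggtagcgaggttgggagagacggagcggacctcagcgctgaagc
HLA-C: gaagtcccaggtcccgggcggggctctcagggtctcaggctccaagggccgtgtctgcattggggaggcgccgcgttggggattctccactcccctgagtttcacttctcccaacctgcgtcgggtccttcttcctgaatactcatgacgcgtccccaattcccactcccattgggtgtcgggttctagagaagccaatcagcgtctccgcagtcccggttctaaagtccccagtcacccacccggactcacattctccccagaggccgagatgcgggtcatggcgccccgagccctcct
In B2M, TAP1 and TAPBP the capitals are a pair of overlapping matches, which begin at positions -144 and -138, -134 and -128, and -20 and -14 from the start. TAP2 had a single match at -58 and the PSMB8 window one at -4. A kappaB motif, searched as GGGNNTTNCC on both strands and present in 5.68% of all windows, was also found in B2M, TAP1, TAPBP and HLA-B. TAP1 and PSMB9 point away from each other, with starts 488 bases apart, and the TAP1 match at -128 begins 360 bases from the PSMB9 start. Such matches describe the letters of the reference and are not measured binding sites.

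Most of the class I genes were higher in G2 than in either control line. In G2/SCR 7 of the 9 were called higher and 0 lower, where 15.1% of the 18947 genes tested were called higher and 11.8% lower. In G2/WT the count was again 7 higher and 0 lower, where 17.7% of all genes were called higher and 12.2% lower. The test was limma after a log2(normalized count + 1) transformation, which makes changes of weakly expressed genes look smaller, and a called gene had an unadjusted p of 0.05 or less and a fold change of 1.5 or more. With a Benjamini-Hochberg adjusted p in its place both counts stayed at 7, where 14.3% and 16.9% of all genes were higher. B2M, HLA-C, HLA-E, TAP1, TAPBP, PSMB8 and PSMB9 made up the 7 in both comparisons, and HLA-B and TAP2 were not called in either. PSMB9 was at 0 in all 5 control libraries and was tested only because of its G2 level, so its call is not independent of the filter on mean level, and of the other 8 genes 6 were called higher in each comparison. These comparisons share the G2 libraries. In the same 7 genes all 3 G2 libraries lay above all 5 control libraries, as they did in 22.8% of all genes tested. The median log2 fold change of the 9 genes was 1.29 against SCR and 1.40 against WT, while over all genes tested it was -0.01 and 0.00. Without PSMB9 the medians were 1.27 and 1.39. Each library pools a whole culture, so more cells with a transcript and more transcript per cell cannot be told apart.

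**Figure D1:**
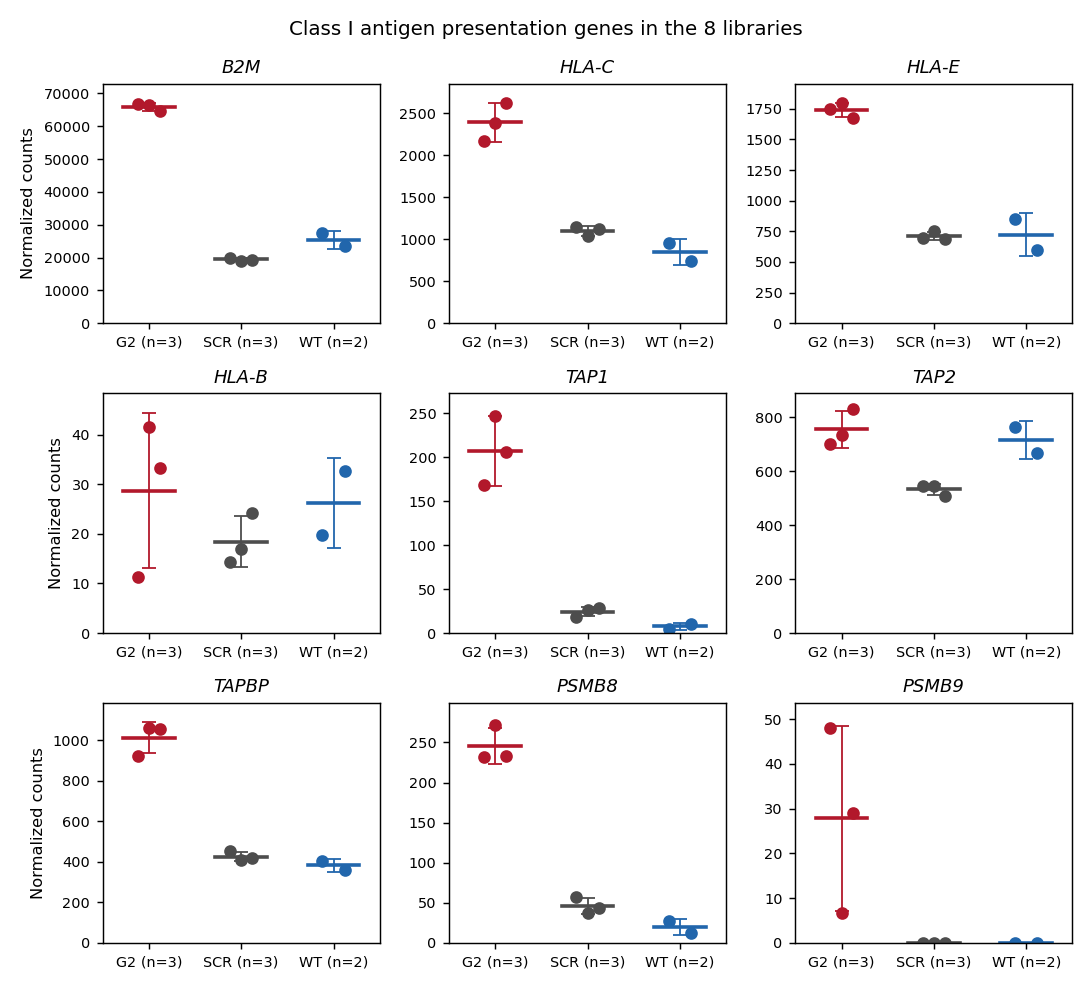
Normalized counts (vertical axes, each from 0) of the 9 class I genes in each library of the G2, SCR and WT lines; points are libraries, bars are means and error bars are 1 SD. The G2 points lie above all control points for 7 genes, and they overlap the controls for HLA-B and TAP2.

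B2M on chromosome 15 (GSHG0015902, 44711514 to 44718145 on hg38, plus strand) was the most abundant of the 9. Its normalized counts were 66729.5, 66483 and 64534 in G2 replicates 1 to 3, 19976, 19089 and 19256 in SCR replicates 1 to 3, and 27347 and 23488 in WT replicates 1 and 2. All G2 libraries were far above the controls, with a gap many times the spread within a line, and the WT libraries were above those of SCR. On the log2 scale G2 exceeded SCR by 1.76 (standard error 0.06, adjusted p = 2.8e-10) and WT by 1.38 (standard error 0.07, adjusted p = 6.8e-09), that is 3.39-fold and 2.60-fold. B2M had the smallest standard error of the 9 genes in both comparisons.

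Among the heavy chains, HLA-C and HLA-E rose by similar factors while HLA-B stayed near the detection limit. HLA-C (GSHG0047534, chromosome 6, 31268749 to 31272136, minus strand) had 2163, 2384 and 2619 normalized counts in G2, 1140.0, 1034 and 1123 in SCR, and 959.8 and 739.7 in WT. Every G2 library was above every control library, and the SCR libraries were above those of WT. The log2 fold change of HLA-C was 1.12 against SCR (standard error 0.10, adjusted p = 2.2e-06) and 1.5 against WT (standard error 0.11, adjusted p = 4.8e-07). HLA-E (GSHG0038790, chromosome 6, 30489454 to 30494199, plus strand) had 1751, 1794 and 1676 in G2, 697, 752 and 686 in SCR, and 847 and 597 in WT. The G2 values were close together and clear of the controls, and the WT values enclosed those of SCR. HLA-E was higher by a log2 of 1.29 than SCR (adjusted p = 1.3e-06) and by the same amount than WT (adjusted p = 3.6e-06).

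HLA-B (GSHG0047535, chromosome 6, 31353873 to 31357179, minus strand) had 11.3, 41.6 and 33.3 normalized counts in G2, 14.3, 16.9 and 24.2 in SCR, and 19.9 and 32.8 in WT. The lines overlapped, and G2 held both the lowest and the highest library. These values rest on 12 to 38 recovered counts per library. The log2 fold change of HLA-B was 0.46 against SCR (95% interval -0.61 to 1.53, adjusted p = 0.46) and -0.02 against WT (95% interval -1.21 to 1.17, adjusted p = 0.98). The HLA-C change of 1.12 lies inside the first interval, and that of 1.5 lies outside the second. Without G2 replicate 1 the G2/SCR value was 1.01 with an unadjusted p of 0.034, which passes the threshold. The heavy chain genes and their pseudogenes are close paralogs, and the treatment of reads that match several genes is not given in the sources used here, so the split of reads between these rows is uncertain. The HLA-H pseudogene row, for example, held 1102 to 1236 normalized counts in G2, 667 to 735 in SCR, and 882 and 732 in WT.

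Of the peptide transporter genes, TAP1 rose strongly and TAP2 did not pass the fold threshold. TAP1 (GSHG0047551, chromosome 6, 32845204 to 32854007, minus strand) had 168, 247 and 206 normalized counts in G2, 18.4, 26.3 and 27.96 in SCR, and 4.97 and 9.93 in WT. The 3 lines formed separate levels, with G2 highest and WT lowest. TAP1 rose by a log2 of 3.05 against SCR (standard error 0.31, adjusted p = 5.8e-06) and 4.67 against WT (standard error 0.35, adjusted p = 4e-07). The WT level rests on 14 recovered counts in both libraries together, about 5 fragments, and the ratio of G2 to WT was 27.8 with a 95% counting interval of 11.9 to 85.8.

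TAP2 (GSHG0047562, chromosome 6, 32821831 to 32838770, minus strand) had 701, 735 and 831 normalized counts in G2, 546, 546 and 510.1 in SCR, and 765 and 667 in WT. G2 lay above SCR and overlapped WT. In G2/SCR the TAP2 change of 0.50 (standard error 0.09, adjusted p = 0.0008) was larger than the spread between replicates but, at 1.41-fold, under the fold threshold. In G2/WT it was 0.08, with a 95% interval of -0.15 to 0.30. The tapasin gene TAPBP (GSHG0038716, chromosome 6, 33299694 to 33314244, minus strand) had 924, 1058 and 1055 normalized counts in G2, 452, 407 and 419 in SCR, and 406 and 360.4 in WT. All G2 libraries were above all controls, and the SCR and WT libraries lay near each other. TAPBP rose by a log2 of 1.25 against SCR (standard error 0.09, adjusted p = 3.7e-07) and 1.40 against WT (standard error 0.10, adjusted p = 4e-07).

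The immunoproteasome genes among the 9, PSMB8 and PSMB9, were higher in G2, from low control levels. PSMB8 (GSHG0047550, chromosome 6, 32840717 to 32844679, minus strand) had 231, 272 and 233 normalized counts in G2, 57.2, 37.5 and 43.1 in SCR, and 27.3 and 12.9 in WT. The G2 libraries stood far above the rest, and the SCR libraries stood above those of WT. For PSMB8 the rise was 2.41 against SCR (standard error 0.27, adjusted p = 1.4e-05) and 3.63 against WT (standard error 0.30, adjusted p = 1.1e-06). PSMB9 (GSHG0038875, chromosome 6, 32854148 to 32859851, plus strand) had 48.0, 6.57 and 29.0 normalized counts in G2 and 0 in all 5 control libraries. It was seen in each G2 library, but the 3 values differed widely and rest on 51, 6 and 27 recovered counts. Most small recovered counts were multiples of 3, so a line was taken as at the floor where no library exceeded 9 recovered counts. Against that floor, applied to each library, PSMB9 in G2 was at least 3.42-fold higher than SCR and at least 2.77-fold higher than WT. These bounds lean on G2 replicate 1, without which they were 2.18 and 1.77, and the 6 counts of G2 replicate 2 lie under the floor themselves. The gene passed the filter on mean level only through G2, and its fitted change depends on the pseudocount (adjusted p = 0.0085 against SCR and 0.014 against WT). Without G2 replicate 1 the unadjusted p in G2/WT was 0.054, above the threshold.

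PSMB8 replaces the constitutive subunit PSMB5, and PSMB9 replaces PSMB6. Per kilobase of the GENCODE canonical transcript, PSMB8 stood at 0.647 ± 0.048% of PSMB5 in G2 (SD, n = 3), 0.116 ± 0.026% in SCR (SD, n = 3) and 0.0418 ± 0.017% in WT (SD, n = 2). PSMB9 stood at 0.0195% to 0.147% of PSMB6 in G2 and at 0 in the controls. The constitutive subunits were far more abundant than both in every library at the RNA level. For the third such pair, PSMB10 stood at 8.24 ± 1.88% of PSMB7 in G2, 6.75 ± 0.93% in SCR and 6.19 ± 0.73% in WT. The SCR range overlapped those of both other lines, while all G2 libraries lay above both WT libraries.

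**Figure D2:**
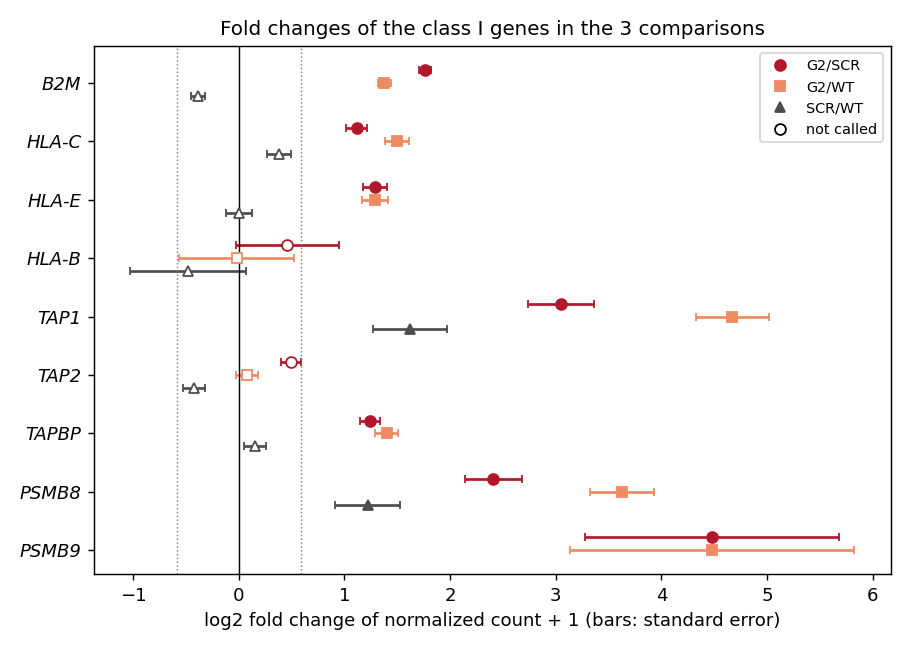
Fitted log2 fold changes of the 9 class I genes (horizontal axis; gene on the vertical axis) in G2/SCR (circles), G2/WT (squares) and SCR/WT (triangles), with standard errors as bars, open symbols for genes not called, and dotted lines at a fold change of 1.5 in either direction. TAP1, PSMB8 and PSMB9 lie farthest to the right, TAP1 and PSMB8 are the filled triangles, and PSMB9 has no SCR/WT symbol because it was at 0 in both lines.

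The control lines differed from each other in part of this set. In SCR/WT 2 of the 9 genes were called higher and 0 lower, where 10.7% of all genes were called higher and 5.63% lower. TAP1 was higher in SCR by a log2 of 1.62 (standard error 0.35, adjusted p = 0.0036) and PSMB8 by 1.22 (standard error 0.30, adjusted p = 0.0086). For B2M the SCR/WT difference was -0.38 (adjusted p = 0.00083), for TAP2 -0.42 (adjusted p = 0.0081) and for HLA-C 0.38 (adjusted p = 0.022), all under the fold threshold. Scaling the libraries to the same total, which changes how the ribosomal RNA counts of WT weigh, moved the median of all genes in SCR/WT from 0.01 to 0.28 and HLA-C to 0.66, past the threshold. HLA-E differed by 0.00 (95% interval -0.27 to 0.27). Of the 9 genes, 7 were higher in both G2 comparisons and 5 of them were also not called in SCR/WT, where 11.3% and 8.13% of all genes met these criteria.

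In levels per kilobase of canonical transcript, the 9 genes spanned a wide range. In G2 the order was B2M at 69900 ± 1275 normalized counts per kilobase, HLA-C at 1549 ± 148, HLA-E at 683 ± 23.3, TAPBP at 293 ± 22.2, PSMB8 at 218 ± 20.2, TAP2 at 134 ± 11.9, TAP1 at 77.2 ± 14.7, PSMB9 at 27.4 ± 20.4 and HLA-B at 18.7 ± 10.2 (SD, n = 3). Among neighbours in that order, PSMB9 and HLA-B overlapped in their libraries and the others did not. In SCR the first 4 places were the same, followed by TAP2 at 94.7 ± 3.68, PSMB8 at 40.9 ± 8.995, HLA-B at 12.01 ± 3.34, TAP1 at 9.01 ± 1.91 and PSMB9 at 0, with HLA-B and TAP1 overlapping. In WT TAP2 at 127 ± 12.2 and TAPBP at 111 ± 9.35 were neighbours in the order with libraries that only just failed to overlap, PSMB8 at 17.9 ± 9.06 and HLA-B at 17.1 ± 5.94 overlapped, and TAP1 stood at 2.77 ± 1.31 (SD, n = 2). PSMB8 thus moved from below TAP2 in both controls to above it in G2.

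Further class I genes were less uniform. Of a list of 18 others, 15 were tested, and 10 were called higher and 1 lower in G2/SCR (median log2 fold change 0.81) against 6 higher and 0 lower in G2/WT (median 0.38). For this and each list below, the shares of all genes tested were 15.1% higher and 11.8% lower in G2/SCR. In G2/WT they were 17.7% and 12.2%. ERAP2 and TAPBPL, both among the 10, averaged under 10 in each control line. They passed the filter on mean level only through G2, so their calls are not independent of it. HLA-F and HLA-G, non-classical heavy chains, rose by 0.81 and 0.66 in G2/SCR and by 0.76 and 0.63 in G2/WT. ERAP1 and ERAP2, which trim peptides in the endoplasmic reticulum, were both called higher. ERAP1 rose by 1.5 against SCR (adjusted p = 2.1e-07) and 1.32 against WT (adjusted p = 1.9e-06). ERAP2 had 419, 387 and 423 normalized counts in G2, 11.2, 9.38 and 5.29 in SCR, and 0 and 17.9 in WT, so it was near the floor in the controls (log2 fold change 5.47 in G2/SCR, adjusted p = 0.00011).

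NLRC5, the transactivator of class I genes, had 173, 136 and 128 normalized counts in G2, 58.2, 39.4 and 42.3 in SCR, and 36.0 and 27.8 in WT. All G2 libraries were above the controls, and NLRC5 rose by 1.63 against SCR (adjusted p = 9.9e-05) and 2.15 against WT (adjusted p = 2.4e-05). The chaperone genes CALR, PDIA3 and HSPA5 were called in G2/SCR and not in G2/WT. CALR, which helps to load heavy chains, changed by 0.85 against SCR and 0.18 against WT, PDIA3 by 0.93 and 0.38, and HSPA5, a general chaperone, by 0.89 and 0.21. CALR and HSPA5 were also called lower in SCR/WT, at -0.68 and -0.69. PSME1, a subunit of the proteasome activator, changed by 0.62 in G2/SCR, which was called, and 0.27 in G2/WT, which was not. TAPBPL, a tapasin relative that edits the peptide cargo, was at 10.7 to 37.6 in G2 and up to 17.8 in SCR, and was called in G2/SCR only (2.696, adjusted p = 0.043). MR1, which presents vitamin metabolites, had means of 25.2 in G2, 171 in SCR and 14.3 in WT, and was called lower than SCR (-2.73, adjusted p = 1.8e-06) but higher than WT (0.76, adjusted p = 0.033). PSMB10, PSME2 and CANX were not called in either comparison, and MICA, MICB and CD1D were too low to be tested.

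**Figure D3:**
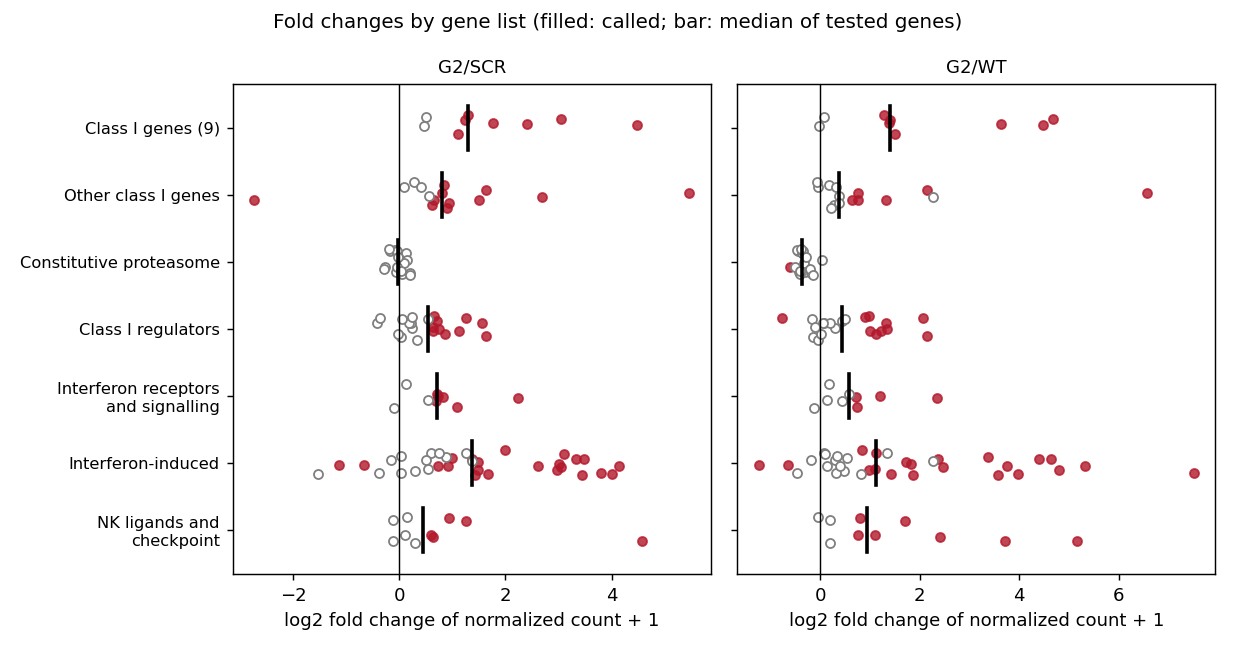
Fitted log2 fold changes (horizontal axes) of the tested genes of 7 gene lists in G2/SCR (left) and G2/WT (right); filled points were called, open points were not, black bars are list medians, and the vertical scatter within a list has no meaning. The 9 class I genes have medians of 1.29 and 1.40, and the constitutive proteasome genes cluster at -0.02 and -0.37.

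The constitutive proteasome genes did not follow PSMB8 and PSMB9. The list of 17 genes held its core subunits, the assembly factor POMP and the activator genes PSME3 and PSME4. Of these 0 were called in G2/SCR by limma at the unadjusted p threshold (median -0.02). In G2/WT 0 were called higher and only PSMA6 was lower, at -0.61 (adjusted p = 1.8e-05, list median -0.37). PSMA6 was not called without WT replicate 1 or under scaling to the same total, and without WT replicate 2 the count of lower genes was 3. In SCR/WT the list median was -0.35 with 0 genes called. These shifts against WT depended on the scaling, since with libraries scaled to the same total the list median was -0.18 in G2/WT and -0.07 in SCR/WT.

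A list of 22 regulators known to act on class I genes held transcription factors, NLRC5 and NFKBIA, an inhibitor of NF-kappaB. Of these 21 were tested, and 10 were called higher and 0 lower in G2/SCR against 9 higher and 1 lower in G2/WT. NFKB2, an NF-kappaB subunit, rose by 1.13 in G2/SCR and 1.23 in G2/WT, with means of 1870.0 in G2, 853 in SCR and 799.9 in WT. IRF7, an interferon regulatory factor, rose by 1.56 and 1.33, and STAT3, a cytokine-activated factor, by 0.63 and 1.00. RFX5, a subunit of the factor that binds class I and class II promoters, was not called (-0.41 and 0.07), and RFXAP, its partner, was the 1 lower gene in G2/WT at -0.77. Of 9 tested genes of interferon receptors and their signalling, 6 were higher against SCR, 4 were higher against WT and 0 were lower in either, among them IFNGR2, a chain of the interferon-gamma receptor, at 0.83 and 0.72, and SOCS3, a feedback inhibitor, at 1.08 and 0.74. IFNAR1, a chain of the type I interferon receptor, changed by 0.69, which was called, and by 0.43 in G2/WT, which was not. IFNB1 and IFNG were listed at 0 in all libraries.

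Other interferon-induced genes showed a mixed picture with more rises than falls. Of 46 symbols listed, 45 were in the table and 35 were tested, and 20 were called higher and 2 lower in G2/SCR (median 1.36) against 19 higher and 2 lower in G2/WT (median 1.11). GBP2, an interferon-induced GTPase, had 750, 719 and 747 normalized counts in G2, 77.6, 94.8 and 95.2 in SCR, and 101 and 174 in WT, with G2 clear of the controls (3.04 against SCR and 2.47 against WT). IFITM2, which limits virus entry, stood at 1939 in G2, 257 in SCR and 68.4 in WT and, like TAP1 and PSMB8, was called in all 3 comparisons. HERC5, the ligase that attaches ISG15, fell by 1.13 and 1.24 on the log2 scale, and UBE2L6, its partner enzyme, changed by -0.67 and -0.66. In SCR/WT 7 genes of this list were called higher and 4 lower, and without SCR replicate 3 the total was 7.

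Class II presentation was nearly silent: of 12 genes, 2 reached the level needed for testing, 0 were called in any comparison by limma, also at an unadjusted p of at most 0.05, and its transactivator CIITA was at 0 in 7 of 8 libraries and at 1.09 in the other. Of 10 tested ligands of natural killer cells and checkpoint genes, 5 were higher against SCR and 7 against WT, and the first count was 3 without G2 replicate 3, SCR replicate 2 or SCR replicate 3. CD274, which encodes the checkpoint ligand PD-L1, had 651, 689.8 and 596 normalized counts in G2, 30.6, 20.6 and 27.96 in SCR, and 16.1 and 17.9 in WT. The G2 libraries were far above the controls, with log2 fold changes of 4.58 against SCR (adjusted p = 2.8e-09) and 5.17 against WT (adjusted p = 2.9e-09). NECTIN2, a ligand of DNAM-1 and TIGIT, rose by 1.26 and 1.70, and CD47, the signal against phagocytosis, by 0.94 and 0.79.

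Of the 9 genes, 8 lie in the MHC region of chromosome 6, and TAP2, PSMB8, TAP1 and PSMB9 are neighbours. Between HLA-F and TAPBP (29723401 to 33314244 on hg38, 3.59 Mb) 112 other genes were tested. Of these, 20 were called higher and 9 lower in G2/SCR (median 0.02), and 15 higher and 9 lower in G2/WT (median 0.03), so the medians of the region lay close to those of all genes. Of all genes tested, 15.1% were called higher and 11.8% lower in G2/SCR, and 17.7% and 12.2% in G2/WT. The 112 include class I pseudogenes and antisense genes called higher in G2/SCR, among them HLA-H, HLA-J, HLA-L, HLA-F-AS1 and PSMB8-AS1. PSMB8-AS1 passed the filter on mean level only through G2. The antisense gene PSMB8-AS1 (32844086 to 32846500, plus strand) overlaps PSMB8 and TAP1 and held 38.6, 52.6 and 9.67 normalized counts in G2, 2.82 to 6.12 in SCR and 0 in WT. A stranded kit was used, but the strand setting of the counting is not given in the sources used here, so reads of these overlapping genes may not have been kept apart.

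**Figure D4:**
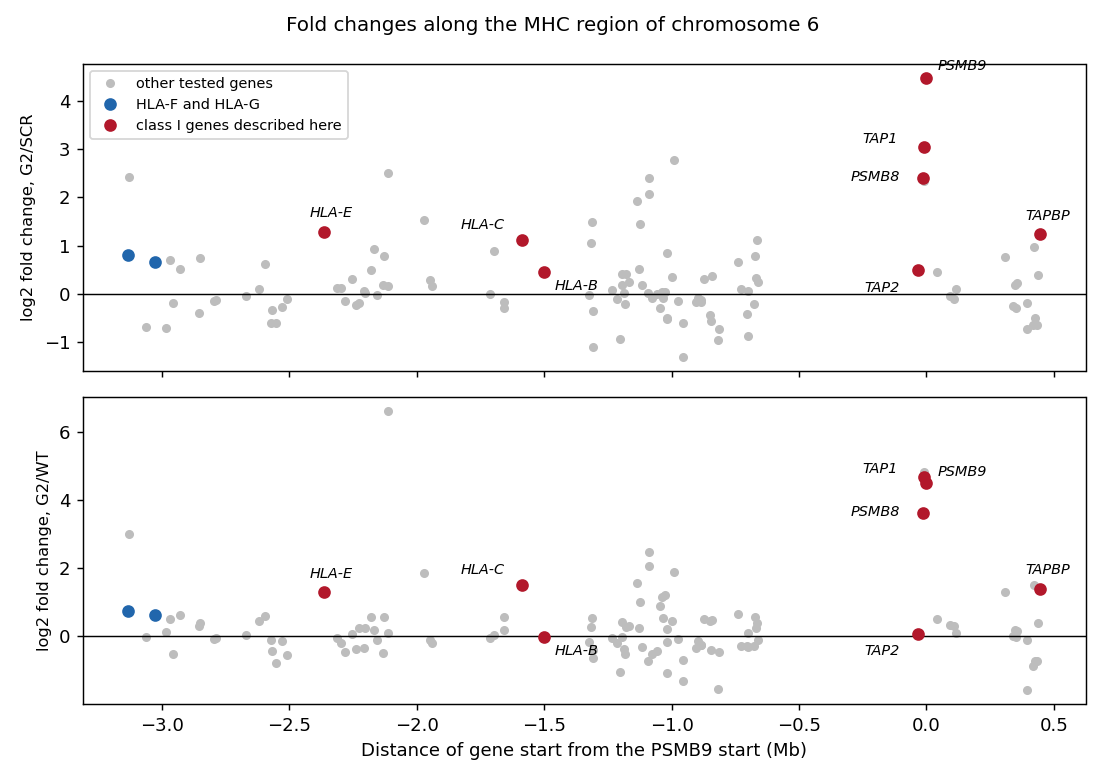
Fitted log2 fold changes in G2/SCR (upper panel) and G2/WT (lower panel) of class I genes and 112 other tested genes between HLA-F and TAPBP, by distance of the gene start from the PSMB9 start in Mb. TAP1, PSMB8 and PSMB9 lie together at 0 Mb well above 0, TAP2 beside them lies at 0.50 in the upper panel and 0.08 in the lower, and the other genes (grey) scatter around 0.

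The genes whose profile over the 8 libraries was nearest to the mean profile of the 9, among 13059 other genes averaging 100 normalized counts or more, were IGFBP6 (root-mean-square distance 0.076 on the log2 scale), FCGRT (0.086), KIF1C (0.091), SH3GLB1 (0.099) and CD59 (0.0997). None of these 5 lies on chromosome 6. The mean profile includes the large changes of TAP1, PSMB8 and PSMB9. In G2/SCR these 5 nearest genes rose by 1.71 to 1.95 on the log2 scale, above the median of 1.29 of the 9 genes.

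Markers of other cell types were read beside these changes. The summed level of 12 leukocyte markers was 703 to 782 normalized counts in G2, 105 to 133 in SCR and 123 to 173 in WT. The rise came mostly from CD68, a lysosomal gene of macrophages also expressed elsewhere, with means of 703 in G2, 65.3 in SCR and 86.8 in WT. PTPRC, CD3E, CD3D, MS4A1, NKG7 and TYROBP were at or near 0 in all lines, and 9 of the 12 markers were at the floor in G2. CSF1R had 16.0, 2.19 and 27.9 normalized counts in G2 and 0 in all controls, too low to be tested. Of 5 endothelial markers 4 were at the floor in each line. The only one tested was VWF, with means of 32.4 in G2, 6.16 in SCR and 2.48 in WT. It was called higher in G2/SCR (2.02) and G2/WT (3.56), in G2/SCR only at the unadjusted p. VWF passed the filter on mean level only through G2, with 59.3, 17.5 and 20.4 normalized counts in replicates 1 to 3. Its calls are thus not independent of that filter. Summed fibroblast markers were 128819 to 131285 in G2, 28061 to 28442 in SCR and 25512 to 27175 in WT, with POSTN at 0 throughout. The G2 sum came mostly from COL3A1, DCN and THY1, with means of 40955, 37183 and 35983. Of 8 tested fibroblast markers 6 were called higher in each G2 comparison, and PDGFRA and PDGFRB were not called. Summed noradrenergic neuroblastoma markers were 85899 to 94604 in G2, 170968 to 184121 in SCR and 186105 to 200697 in WT. Of these 9 markers 7 were called lower and 0 higher in each G2 comparison. GATA3 went the other way, with means of 18206 in G2, 14129 in SCR and 14963 in WT. The part of these shifts in the class I changes was not tested.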

How the data were processed

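The authors mapped paired reads of a stranded polyadenylated RNA library kit to hg38 with STAR, counted them on FAST DB genes with featureCounts (Subread 1.5.0) and divided the counts by DESeq2 size factors. This deposited signal is a normalized count per gene and library, unscaled for gene length. In each library 100% of the values were whole multiples of 1 step (tolerance 0.01), which gave recovered counts. Between 71.3% and 75.6% of recovered counts from 1 to 30 were multiples of 3, so 3 counts were taken as 1 fragment. Intervals and floors cover counting error only.

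Libraries were grouped by their labels. limma 3.58.1 (R 4.3.3, with a trend) was fitted to log2(value + 1) for the 18947 genes averaging 10 or more, with 1 mean per line, and p-values were adjusted over all of them (Benjamini-Hochberg). It was tested on simulated data first. As alternatives, recovered counts of G2 and SCR were fitted with edgeR 4.0.16 and DESeq2 1.42.0. For WT replicate 2 the step lay so close to 1 that recovery was not checkable, and no count model was fitted to WT. The study's filter on intergenic signal was not repeated.

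The 9 genes, the gene lists and the tests were chosen with earlier results of these data known. The genes named are the 9, the other class I genes called in G2/SCR or G2/WT, the 3 called genes of each further list with the smallest p, the 5 nearest profiles and PRPF40B. PSMB10 to PSMB7, PSME2, CANX, RFX5, RFXAP, UBE2L6, HLA-H, PSMB8-AS1, CD68, the other single cell type markers and genes listed at 0 or too low to test were named after their values were seen. Some genes of the lists are not reported here. Promoter windows are from RefSeq, and transcript lengths are from GENCODE 44.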

Additional observations from a re-analysis of the deposited data

How the results depend on the processing

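The count of class I genes called higher in G2/SCR stayed at 7 under each alternative run except a mean of at least 100, which left 5 because HLA-B, TAP1 and PSMB9 were no longer tested, and without G2 replicate 1, which gave 8. In G2/WT it stayed at 7 except for 5 and 6 under the same settings. In SCR/WT the count of 2 became 1 with a mean of at least 100 and 3 under the 3 scalings that use totals or the proteasome core. Scaling to the geometric mean of the proteasome core genes was chosen after seeing the data. HLA-C in SCR/WT was then called, at 0.66 (same total), 0.59 (same total without ribosomal RNA and mitochondrial genes) and 0.75 (proteasome core). These scalings moved the median of all genes by up to 0.37. The fitted change of PSMB9 in G2/SCR ran from 1.74 with a pseudocount of 10 to 7.88 with edgeR, that of TAP1 in G2/WT was 3.64 with a pseudocount of 10, and PSMB9 in G2/WT was 3.91 without G2 replicate 1. Libraries with the same replicate number did not deviate together (correlations of deviations from the line means between -0.0316 and 0.0417, and not every library correlated best with its own number), so the numbers were not taken as a pairing. A fit with the replicate number as a block gave 7, 7 and 2 class I genes called in G2/SCR, G2/WT and SCR/WT and changed no call of the 9 genes. The causes of these shifts were not tested.

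Of the other lists, counts in either direction changed as follows. With a fold change of at least 2, other class I genes had 5 in G2/SCR, 3 in G2/WT and 1 in SCR/WT, regulators 4 in G2/SCR and 0 in SCR/WT, interferon receptors and signalling 2 and 2 in the G2 comparisons, natural killer ligands and checkpoint 2 in G2/SCR, and the constitutive proteasome 0 in G2/WT. With a mean of at least 100, interferon-induced genes had 11, 9 and 5 in G2/SCR, G2/WT and SCR/WT, and natural killer ligands and checkpoint 4 in G2/WT and 1 in SCR/WT. Under scaling to the same total, to that total without ribosomal RNA and mitochondrial genes, and to the proteasome core, SCR/WT gave 7, 5 and 8 regulators, 1, 1 and 1 interferon receptor and signalling genes, and 6, 5 and 6 natural killer ligands and checkpoint genes, and G2/WT gave 0, 0 and 0 constitutive proteasome genes. The same first 2 scalings gave 3 and 3 natural killer ligands and checkpoint genes in G2/SCR, and the proteasome core gave 11 other class I genes in G2/WT. In SCR/WT the interferon-induced count was 7 in a fit of the 2 lines and 6 at an adjusted p. With no filter, class II had 1 in G2/SCR. Leaving out 1 library at a time gave 3 to 5 other class I genes, 3 to 5 regulators, 0 to 1 interferon receptor and signalling genes, 7 to 11 interferon-induced genes and 0 to 2 constitutive proteasome genes in SCR/WT, 0 to 3 constitutive proteasome genes in G2/WT, and 3 to 5 natural killer ligands and checkpoint genes in G2/SCR. The low members are limited by depth, since HLA-B, PSMB9 and TAP1 in WT rest on few fragments.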
